A study of Ovis aries with 18 samples.

Results

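The miR-17, miR-18 and miR-19 microRNAs and their relatives miR-106a and miR-106b were followed in small RNA libraries of the sheep uterus (Ovis aries). Rows were taken from the vesicle and endometrium tables when their name, or the miRNA they are listed with as having the same seed, was miR-17, miR-18a, miR-18b, miR-19a, miR-19b, miR-20a, miR-20b, miR-93, miR-106a or miR-106b. This gave 10 of the 495 rows for vesicles and 11 of the 761 rows for endometrium, with 10 rows in both. Both times 4 rows carry a sheep miRNA name (miR-17-5p, miR-19b, miR-106a and miR-106b). The other rows, 6 for vesicles and 7 for endometrium, are numbered loci listed with the seed of a known miRNA. Such a locus may be a different miRNA from the one it is listed with, so it is called by its identifier. No 2 of the vesicle rows held identical values, so none was merged.

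All ewes were ovariectomized, and daily injections of 50 mg progesterone (P4) were given to all of them over 14 days. The P4 group received nothing else. In the P4+RU486 group, 50 mg RU486 was added to each injection between day 8 and day 14. RU486, or mifepristone, blocks the progesterone receptor, and it also binds the glucocorticoid receptor. Extracellular vesicles, membrane-enclosed particles that cells shed, came from the flushed uterine lumen, with 4 libraries per treatment. The endometrium, the lining of the uterus, gave 5 libraries per treatment. Treatments were given to different ewes. Neither sample was sorted by cell type, so vesicles may come from any cell that sheds into the lumen.

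MicroRNAs are short RNAs that repress messenger RNAs, and their seed, a stretch near the 5′ end, selects the targets. Mammals carry miR-17, miR-18a, miR-19a, miR-20a, miR-19b and miR-92a in 1 primary transcript, known for promoting cell division and survival. Related transcripts hold miR-106a with miR-18b, miR-20b and miR-363, and miR-106b with miR-93 and miR-25. miR-17, miR-20a, miR-20b, miR-93, miR-106a and miR-106b share a seed and restrain cell-cycle inhibitors such as CDKN1A. The miR-19 miRNAs have a different seed. The miR-18 seed is close to, but not the same as, that of miR-17. In RefSeq's genes for the ARS-UI_Ramb_v3.0 assembly, which is not the build of these data, MIR17 and MIR19B lay within 10 kb of each other. MIR106B lay inside MCM7, which encodes a DNA replication helicase subunit, with MIR25 within 10 kb, and MIR106A had no miRNA gene within 10 kb.

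The vesicle libraries held between 97202 and 1062646 reads in listed rows, and 1 read was worth 1.10 to 10.4 normalized CPM (reads scaled by the authors to a common library size). The P4 libraries are called P01 to P04 and the P4+RU486 libraries R01 to R04. The 3 shallowest were P01 (97202 reads), P04 (97593) and R04 (101186), and the deepest were P02 (571791) and P03 (1062646). A count of 0 allows up to 3 reads, which is 3.30 normalized CPM in P03 and 31.3 in R04. Epithelial miRNAs (the miR-200 family, 5 rows) took 1.02% to 2.71% of the reads in P4 and 1.05% to 1.63% in P4+RU486. Leukocyte miRNAs (miR-150 and the seeds of miR-155 and miR-342, 3 rows) took 0.225% to 2.12% and 0.224% to 0.514%. The erythroid row, with the miR-486 seed, took 0.0283% to 0.838% and 0.185% to 0.587%. Smooth muscle miRNAs took 1.15% to 1.90% and 1.05% to 1.53%, and stromal miRNAs (2 rows) 0.00750% to 0.122% and 0.0136% to 0.0641%. Of the fixed markers, miR-141, miR-429, miR-142, miR-223, miR-451 and miR-144 matched no row by name or seed name, although 1 row with the miR-142b seed exists.

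Most vesicle reads of the 10 rows lay in 1 of them. The row 24_21892, with the miR-20a seed, had 6159 of their 7340 reads over the 8 libraries and ranked 49th of 485 distinct rows by mean level. The next 4 rows had 326 (miR-17-5p), 305 (miR-106b), 278 (miR-19b) and 241 reads (10_3802, also with the miR-20a seed), and ranked between 115th and 131st. Together these 5 rows had 7309 reads. The other 5 rows had 31 reads in all.

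**Figure D1:**
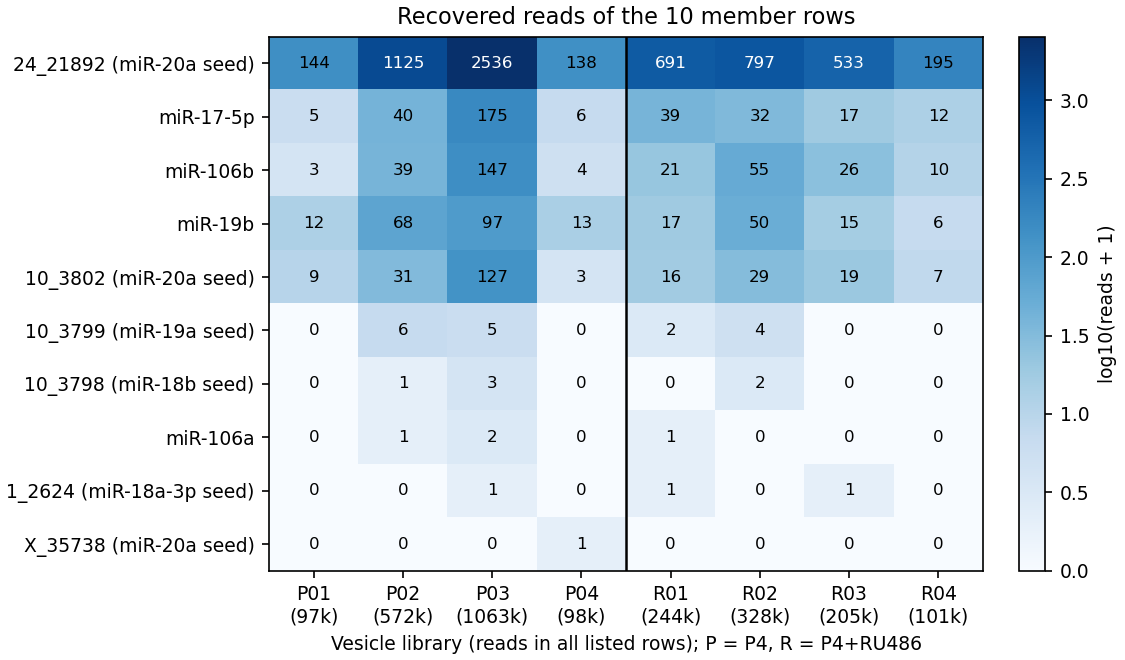
Whole reads recovered from the deposited values for the 10 rows (vertical) in each vesicle library (horizontal, with the library's reads in all listed rows, k for kilo). The colour is log10(reads + 1) and the number in each cell is the read count. The row 24_21892 holds 138 to 2536 reads in every library, and the lower 5 rows hold at most 6.

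In every library 24_21892 had far more reads than its seed relatives. Of the reads of the 6 rows with the miR-17 seed it held 89.04% ± 2.84 (SD, n = 4) under P4, and 88.5% ± 1.51 (SD, n = 4) when RU486 was added. Ratios of reads within a library do not depend on the scaling, and mature miRNAs are of about 1 length. Whether different miRNAs were captured equally well was not tested, so these are ratios of reads and not of molecules. The row 24_21892 had 14.5 to 31.4 times the reads of miR-17-5p, 14.5 to 48 times those of miR-106b and 16 to 46 times those of 10_3802. Its table entry gives miR-20a for the seed, and several miRNAs share that seed. Reads of near-identical miRNAs (miR-17, miR-20a, miR-20b, miR-93, miR-106a and miR-106b) can be split between rows by the authors' counting, so the ratios are uncertain in that respect.

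The comparison of treatments asked whether blocking the progesterone receptor changed these miRNAs in lumen vesicles. None of the 5 rows that could be tested passed, where 0.437% of all tested rows did (1 of 229). None of the 5 separated the treatments without overlap, where 10.0% of all tested rows did (23 of 229). Rows were tested with limma across all 229 rows with a mean of at least 10 normalized CPM, on log2(value + 1), and passed at a Benjamini-Hochberg adjusted p under 0.05. At an unadjusted p under 0.05 the counts were 0 of 5 here and 33 of 229 over all rows. In 4 of the 5 rows the estimate was higher in P4+RU486, with a median log2 difference of 0.54 over the 5. Over all rows tested this held for 118 of 229, with a median of 0.04. The 4 rows share the miR-17 seed and reads can be split between them, so their signs are not independent. Without the 3 shallowest libraries, 24_21892 and miR-106b were at 0.14 and 0.20, and miR-17-5p and 10_3802 at -0.11 and -0.12. In bulk vesicle RNA, fewer vesicles of a cell type and less of a miRNA per vesicle cannot be told apart.

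The most abundant row, 24_21892, was at 1131, 2106, 2787 and 1317 normalized CPM in P01 to P04. In R01 to R04 it was at 2980, 2495, 2549 and 2036. P01 and P04 were the 2 lowest libraries, while P02 and P03 lay within the range of the P4+RU486 libraries. The P4 mean was 1835 ± 762 (SD, n = 4), and the P4+RU486 mean 2515 ± 386 (SD, n = 4). limma estimated a log2 difference of 0.54, with an SE of 0.31, a 95% interval of -0.14 to 1.21 and an adjusted p of 0.461. In fold terms this interval ran from 0.907 to 2.32.

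miR-106b, of the transcript inside MCM7, had the largest estimated difference of the 5. It was at 23.6, 73.0, 162 and 38.2 normalized CPM in P01 to P04. In R01 to R04 it was at 90.6, 172, 124 and 104. All 4 P4+RU486 libraries lay above 3 of the 4 P4 libraries, and P03 lay among them. P01 and P04 rested on 3 and 4 reads, with exact 95% Poisson intervals of 4.86 to 68.9 and 10.4 to 97.7 normalized CPM, for counting error only. The P4 mean was 74.1 ± 61.9 (SD, n = 4), and the P4+RU486 mean 123 ± 35.7 (SD, n = 4). The log2 difference by limma was 1.04, with an SE of 0.56, a 95% interval of -0.17 to 2.26 and an adjusted p of 0.397. Fitted on the recovered reads it was smaller, at 0.63 by edgeR and 0.68 by DESeq2.

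miR-17-5p, the first miRNA of its transcript, was at 39.3, 74.9, 192 and 57.2 normalized CPM in P01 to P04. In R01 to R04 it was at 168, 100.2, 81.3 and 125. The highest library of all was P03, and the 3 lowest were the other P4 libraries. The P4 mean was 90.9 ± 69.1 (SD, n = 4), and the P4+RU486 mean 119 ± 37.6 (SD, n = 4). By limma these differed by 0.59 on the log2 scale, with an SE of 0.50 and an adjusted p of 0.704. The row 10_3802, with the miR-20a seed, was at 70.7, 58.0, 140 and 28.6 in P01 to P04, and between 69.0 and 90.9 in R01 to R04. P02 and P04 lay below all P4+RU486 libraries, P03 above them and P01 among them. The means were 74.2 ± 46.99 (SD, n = 4) and 80.9 ± 11.5 (SD, n = 4), and limma gave 0.33 on the log2 scale, with an SE of 0.49 and an adjusted p of 0.833.

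miR-19b, encoded close to miR-17 but with a different seed, was the 1 tested row with a lower estimate in P4+RU486. It was at 94.3, 127, 107 and 124 normalized CPM in P01 to P04. In R01 to R04 it was at 73.3, 157, 71.7 and 62.6. In R01, R03 and R04 it lay below every P4 library, and in R02 it lay above them all. The means were 113 ± 15.5 (SD, n = 4) and 91.1 ± 43.9 (SD, n = 4). limma put the log2 difference at -0.40, with an SE of 0.40, a 95% interval of -1.26 to 0.46 and an adjusted p of 0.729.

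**Figure D2:**
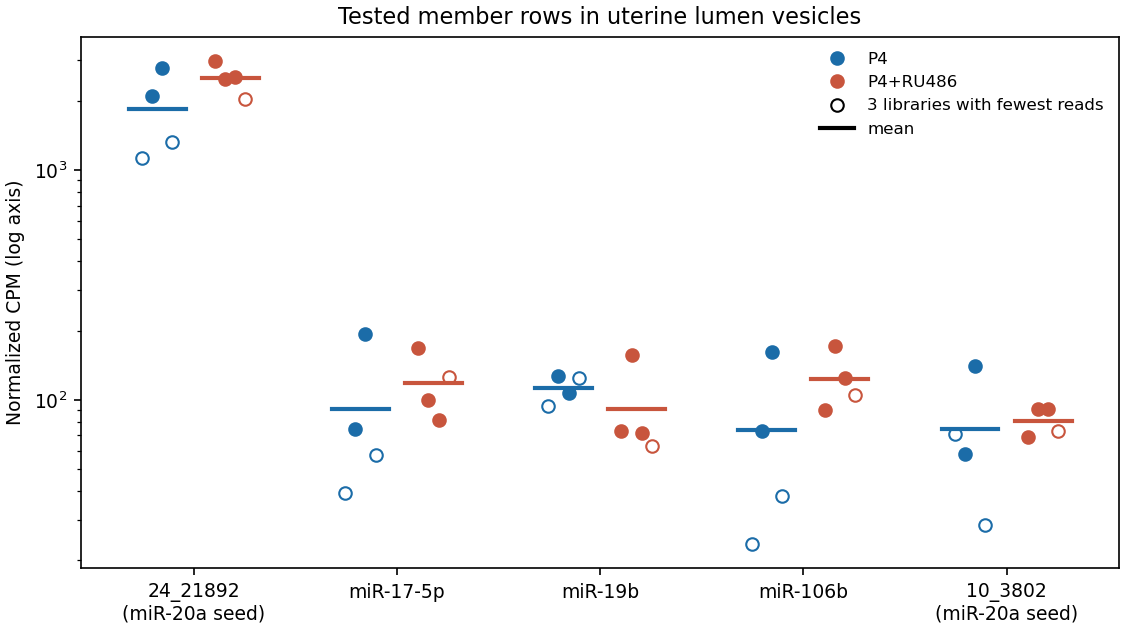
Normalized CPM (log axis) of the 5 tested rows in each of 4 P4 (blue) and 4 P4+RU486 (red) vesicle libraries. Each point is a library, open points are the 3 libraries with the fewest reads, and bars are group means. In the rows with the miR-17 seed the lowest points are open P4 points, and miR-19b does not show this.

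P01 and P04 were the 2 lowest libraries of 24_21892, miR-106b and miR-17-5p. For 10_3802 the 2 lowest were P04 and P02, and for miR-19b they were R04 and R03. On the log2(value + 1) scale over the 8 libraries, 24_21892 had a Pearson correlation of 0.90 with miR-106b, 0.87 with miR-17-5p and 0.62 with 10_3802. For 10_3802 Spearman's rho was lower, at 0.45. With miR-19b the Pearson correlation was -0.16. miR-17-5p and miR-19b, whose listed genes are neighbours, had a correlation of -0.25. Whether other loci add reads to the miR-19b row was not tested. These correlations describe 8 libraries that share their depth and scaling between rows, and several rest on few reads. In reads of the same library, miR-17-5p was at 0.417, 0.588, 1.80 and 0.462 times miR-19b in P01 to P04, and at 2.29, 0.640, 1.13 and 2 times in R01 to R04. Only P03 in P4, and all but R02 in P4+RU486, had more miR-17-5p than miR-19b.

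Depth moved with the level of 24_21892. Within P4, 24_21892 followed the order of the libraries by reads: 1131 in P01, 1317 in P04, 2106 in P02 and 2787 in P03. Within P4+RU486, the shallowest library (R04) was again the lowest, and the other 3 did not follow their order by reads. The 3 shallowest libraries spanned 1131 to 2036 and the 5 deeper ones 2106 to 2980, without overlap. For the other 4 tested rows these ranges overlapped: miR-106b was at 23.6 to 104 in the shallowest and 73.0 to 172 in the deeper libraries, and miR-17-5p at 39.3 to 125 and 74.9 to 192. Among the 5 deeper libraries the means were 2446 in P4 (2 libraries) and 2675 in P4+RU486 (3 libraries). Without the 3 shallowest libraries, the log2 difference was 0.14 for 24_21892 and 0.20 for miR-106b. It was -0.11 for miR-17-5p and -0.12 for 10_3802, which turned their sign, and -0.31 for miR-19b. With depth as a covariate over all 8 libraries the estimates were instead larger for the rows with the miR-17 seed, at 0.68 for 24_21892 (limma adjusted p = 0.09) and 1.31 for miR-106b (limma adjusted p = 0.134). P01 also had the largest shares of leukocyte miRNAs (2.12%, against at most 0.606% elsewhere), stromal miRNAs (0.122%, against at most 0.0641%) and smooth muscle miRNAs (1.90%). It had the lowest share of epithelial miRNAs (1.02%), though R04 was close to it (1.05%). P04 had the largest share of the erythroid row, at 0.838%. The part of depth in the differences was not tested apart from these fits. No fit included the shares of these cell types, so their part was not tested.

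**Figure D3:**
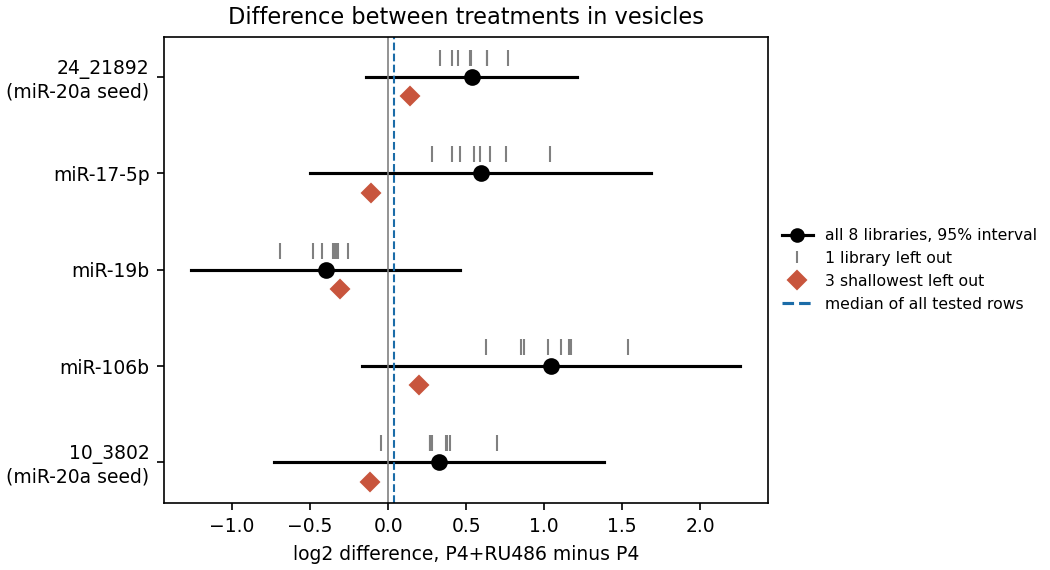
Log2 difference, P4+RU486 minus P4, of the 5 tested rows in vesicles (points, with 95% intervals from limma). Grey ticks leave out 1 library, red diamonds leave out the 3 shallowest, and the dashed line is the median of all 229 tested rows (0.04). Every 95% interval includes 0, and the red diamonds lie between -0.31 and 0.20.

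Shares were taken of the reads in listed rows, with rows of identical values counted once. The 6 rows with the miR-17 seed took 0.219% ± 0.0584 (SD, n = 4) in P4 on average, and 0.292% ± 0.0419 (SD, n = 4) with RU486. The lowest library was P04, at 0.165% (95% Wilson interval 0.141% to 0.193%). The highest was R01, at 0.334% (0.311% to 0.358%). P03, at 0.295% (0.284% to 0.306%), lay inside the range of P4+RU486. The 2 rows with the miR-19 seed took 0.0129% ± 0.00192 (SD, n = 4) and 0.00989% ± 0.00499 (SD, n = 4). Thus the treatments overlapped for both seeds. These shares are sums over rows chosen with earlier results known and were not tested.

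**Figure D4:**
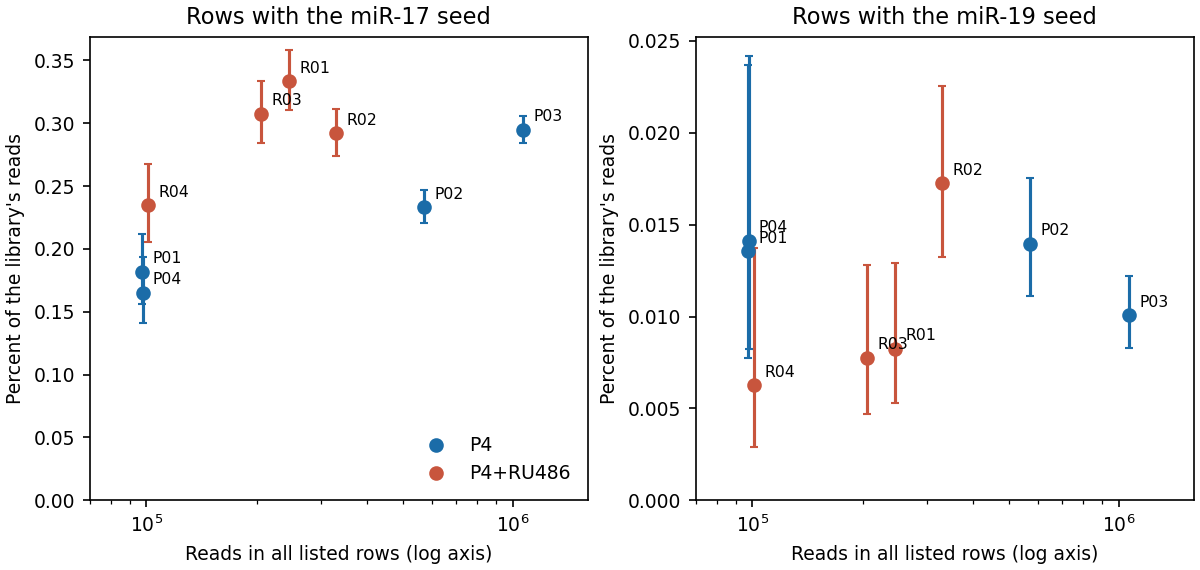
Share of rows with the miR-17 seed (left) and the miR-19 seed (right) in each vesicle library, against the reads in all listed rows (log axis). The share is a percent of the reads in listed rows, with rows of identical values counted once. Bars are 95% Wilson intervals, for counting error only, and colours mark P4 (blue) and P4+RU486 (red). P01, P04 and R04 have the fewest reads; for the miR-17 seed P01 and P04 have the 2 lowest shares, 0.182% and 0.165%.

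The 5 rows with a mean under 10 normalized CPM could not be compared at this depth. The highest of them, 10_3799 with the miR-19a seed, had 17 reads and a mean of 4.73, against 77.6 for the lowest row above the limit (10_3802). It had 6 and 5 reads in P02 and P03, 2 and 4 in R01 and R02, and 0 in the other 4 libraries. The row 10_3798, with the miR-18b seed, had 6 reads in 3 libraries and was the only vesicle row with a miR-18 seed. miR-106a had 4 reads in 3 libraries, and 1_2624, with the seed of miR-18a-3p (the opposite arm), had 3 reads in 3 libraries. X_35738, with the miR-20a seed, had 1 read, in P04. In the 4 libraries without a read of 10_3799, a count of 0 allows between 14.3 and 31.3 normalized CPM, so its absence there is not shown.

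miR-25 and a locus with the miR-92a seed, names that share transcripts with these miRNAs, had far more reads. Of 4 distinct rows with these names or seeds 2 were rare, X_35743 with 3 reads and 2_15108 with 14, both with the miR-92a seed. The other 2 could be tested, both with lower estimates in P4+RU486 and neither past the threshold. For miR-25 the P4 mean was 13585 ± 1287 normalized CPM (SD, n = 4), and the P4+RU486 mean 10954 ± 593 (SD, n = 4). Its P4 libraries (11983 to 15123) did not overlap its P4+RU486 libraries (10482 to 11753), as in 10.0% of all tested rows (23 of 229). Its log2 estimate was -0.31, with an SE of 0.19 and a limma adjusted p of 0.494. The locus 10_3805, with the miR-92a seed and identical in value to X_35741, had an estimate of -0.16, with an SE of 0.20 and a limma adjusted p of 0.806. In reads of the same library miR-25 was 61.1 to 583 times miR-106b, whose gene is its neighbour. The locus 10_3805 had 289.3 to 909.5 times the reads of miR-19b.

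Among the other distinct rows tested, 5 had patterns over the 8 vesicle libraries most like the summed rows with the miR-17 seed. By Pearson correlation of log2(value + 1) these were X_35616 with the miR-3431 seed (0.94), X_35830 with the miR-6119-5p seed (0.92) and miR-103 (0.92). 9_34693 with the miR-1839 seed (0.88) and miR-200c (0.87) followed. miR-103, which is encoded in introns of pantothenate kinase genes, was at 1493 and 1650 in P01 and P04 and at 2754 to 4437 in the other 6 libraries. miR-200c, an epithelial miRNA, was at 888 and 1307 in P01 and P04, at 11166 in P03, and at 1911 to 4330 in the other 5. These are the highest of the correlations with all other tested rows, over 8 libraries that share their depth, and are given as a description.

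The authors' deposited table for vesicles gives FDR values from 0.77 to 1 for the 10 rows, so none passed 0.05, where 1.82% of all rows did (9 of 495). A positive fold there stands for higher in P4: in 86.9% of the 229 rows with a mean of at least 10 the sign was that of the P4 mean minus the P4+RU486 mean. The rare miR-106a was an exception, with a fold of 1.31 in the authors' deposited table and means of 1.02 in P4 and 1.08 in P4+RU486. In the authors' deposited table the fold was -1.86 for miR-106b, -1.49 for miR-17-5p, -1.42 for 24_21892 and -1.1 for 10_3802, all higher in P4+RU486. It was 1.25 for miR-19b, higher in P4. Of the 10 rows 7 were negative in the authors' deposited table, against 48.3% of all 495 rows. Among the negative rows were the rare 1_2624 (3 reads), 10_3798 (6 reads) and 10_3799 (17 reads), so the count says little. The signs of the 5 tested rows are thus the same there as in the limma fit.

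For the endometrium, the authors' deposited table gives no numerator for its folds, so the sign is given as coded. None of the 11 rows had an FDR under 0.05 there, where 1.18% of all rows did (9 of 761). The lowest FDR in the authors' deposited table was that of 10_3799, with the miR-19a seed, at a fold of -1.47 and an FDR of 0.096. That FDR shared the 12th place of 761 rows with 4 other rows. miR-19b, with the same seed, had a fold of -1.25 (FDR 0.754) in the authors' deposited table. The rows with the miR-17 seed had folds of -1.18 for 24_21892 and 10_3802, -1.13 for miR-17-5p and -1.12 for miR-106b in the authors' deposited table. miR-106a had 1.01 and X_35738 1.4 there.

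Rows with the miR-18b seed had folds of -1.14 (10_3798) and -1.4 (X_35736, a row of the endometrium table alone) in the authors' deposited table. The row 1_2624, with the miR-18a-3p seed, had the largest fold of the 11, at 3.24 with an FDR of 0.19. Altogether 8 of 11 rows were negative in the authors' deposited table for endometrium, against 52.2% of all 761 rows. The median signed log2 fold was -0.19 over the 11 rows and -0.03 over all rows. A difference in response between vesicles and endometrium was not tested.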

How the data were processed

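Per the submitters' processing notes, cutadapt 1.11, edgeR and the build Oar_v3.1 were used. Neither the aligner nor the miRNA caller nor the read filters were given in the sources used here. The deposited values for vesicles are a signal in CPM of a TMM-adjusted library size, as TMM factors computed from the reads below showed. All values (100%) were whole multiples of 1 step per library (tolerance 0.1 read), so whole reads were recovered. Reads carry no molecular identifiers, so intervals and floors cover counting error only. Vesicle columns name the treatment by initial letter and not the ewe. A signed fold and an adjusted p-value (FDR) from the authors stand in both tables, per the file headers. No label matches the names of the 10 endometrium columns of single libraries, which were left out, so endometrium levels are not analysed here.

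The test was limma 3.58.1 (trend, R 4.3.3) on log2(value + 1) over vesicle rows with a mean of at least 10, fitted on the whole table, P4+RU486 minus P4, with a threshold of 0.05. Labels list separate samples, and p-values measure the spread between libraries, each taken as a separate ewe. edgeR 4.0.16 (quasi-likelihood) and DESeq2 1.42.0 on the recovered reads were alternatives and called 1 and 5 rows over the whole table. The fits were checked on simulated data with larger changes than those estimated for the tested members. That check does not show whether changes of the estimated size would be found. The members, seed groups, marker lists and named rows were chosen with earlier results of these data known. Named rows are all members, their cluster partners by count, and the 5 rows most like the summed miR-17-seed members.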

Additional observations from a re-analysis of the deposited data

Results flagged for a closer look

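Of 14 groups of 4 libraries (5 tested rows and 2 seed shares, in each treatment), 2 had a library far from the other 3. Chance gives about 1 in 20 for a single group. The seed shares largely repeat the tested rows, so the 14 groups are not independent. miR-19b was at 157 normalized CPM in R02, against 62.6 to 73.3 in the other P4+RU486 libraries, and the gap to the nearest was 0.886 of the range. The share of the miR-19 seed was 0.0101% in P03 (102 reads), against 0.0135% to 0.0141% in the other P4 libraries, and the gap was 0.859 of the range. The 95% Wilson interval in P03, 0.00829% to 0.0122%, overlapped that of P01 (0.00775% to 0.0237%). On the normalized scale miR-19b, with 97 of the 102 reads, was at 107 in P03, inside its P4 range of 94.3 to 127.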

How the results depend on the processing

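None of the 5 tested rows passed the threshold in any of 17 alternatives (another pseudocount, other filters, edgeR, DESeq2, library totals, identical rows merged, each library left out, depth as a covariate, and the 3 shallowest libraries left out). The last 2 were chosen after seeing the data. Signs held in all 17 for 24_21892 (log2 differences from 0.14 to 0.77), miR-106b (0.20 to 1.54) and miR-19b (-0.69 to -0.26). The sign of miR-17-5p turned once, to -0.11 without the 3 shallowest libraries. That of 10_3802 turned in 2, to -0.049 without P04 (P4 replicate 4) and -0.12 without the 3 shallowest. The cause was not tested. With 1 library left out, 24_21892 ranged from 0.33 to 0.77, miR-106b from 0.63 to 1.54, miR-17-5p from 0.28 to 1.04, 10_3802 from -0.049 to 0.70 and miR-19b from -0.69 to -0.26. Leaving out P03 gave the highest estimate of each row with the miR-17 seed. On the recovered reads, edgeR and DESeq2 gave smaller estimates than limma for all 5 rows. They were 0.63 and 0.68 for miR-106b, 0.30 and 0.35 for miR-17-5p, and 0.063 and 0.075 for 10_3802. For 24_21892 they were 0.45 and 0.46, and for miR-19b -0.28 and -0.30. The count of rows called over the whole table was 1, with 5 under DESeq2, 6 with depth as a covariate and 0 to 2 with 1 library left out, none of them among the 5. The share of the miR-17 seed was higher in P4+RU486 by 0.0732 percentage points, and by 0.0470 to 0.0986 in 10 alternatives. Depth limits the result: 3 to 13 reads stood behind the 4 rarer tested rows in P01, P04 and R04. No paired analysis was possible because the treatments were given to different ewes and the vesicle columns name no ewe.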

Other observations

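Relative to 24_21892, miR-25 was less abundant in the P4+RU486 libraries, with 1 exception. In reads of the same library the ratio of miR-25 to 24_21892 was 12.1, 7.18, 4.84 and 9.10 in P01 to P04, and 3.71, 4.22, 4.61 and 5.15 in R01 to R04. P03 lay below R04, so the treatments overlapped. Within P4 the ratio fell as the libraries' reads rose, and within P4+RU486 it was highest in the shallowest library, R04. The part of depth in this ratio was not tested. This ratio was chosen after its values were seen and was not tested.

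Fitted with no filter on low values, the 5 rare rows had log2 differences between -0.85 (X_35738) and 0.97 (1_2624), with SE of 0.69 to 1.30 and limma adjusted p-values of 0.789 to 0.958.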
